A study of Mus musculus with 3 samples.

Results

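The axon and vessel guidance families are the semaphorins with their plexin and neuropilin receptors, the Slits with the Robo receptors, the netrins with Dcc and the Unc5 receptors, and the ephrins with the Eph receptors. Members were taken by gene symbol alone, and 68 of the 53380 features in each count matrix belong to these families. The symbol rule matched 73 features, of which 5 were set aside on their names: Unc50 and Unc5cl, which are not netrin receptors, and the 3 antisense features Plxna4os1, Plxna4os2 and Plxna4os3. Of the 68 members, 34 are ligands and 34 are receptors or co-receptors.

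The samples were sciatic nerve cells of mice carrying Pdgfrb-cre/ERT2 and the R26-TomatoLSL reporter, a tamoxifen-inducible Cre that marks cells in which Pdgfrb was active. TdTomato-positive cells were sorted from intact nerve and from the bridge, the tissue between the nerve ends, at day 7 and day 21 after injury, and were profiled by droplet single-cell RNA sequencing. All 3 groups carry the same alleles, and each group is 1 library from pooled nerves. Myelin was taken out with beads from intact nerve alone, so that step and the group cannot be told apart. Cells were released with collagenase and hyaluronidase, and age, strain and tamoxifen schedule are not given in the sources used here.

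Guidance cues are secreted or membrane-bound proteins that attract or repel growth cones, and the same cues act on endothelial cells and on migrating glia. Semaphorins signal through plexins, with neuropilins as co-receptors for most class 3 semaphorins. Slits act through Robos, netrins through Dcc and Unc5 receptors, and ephrins through Eph receptors on the neighbouring cell, with signals that can run both ways. In peripheral nerve, mesenchymal cells form the endoneurium around the fibres, the perineurium around each fascicle and the epineurium outside it, and after transection a bridge of mesenchymal, immune and endothelial cells links the stumps before Schwann cells and axons cross it.

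The authors' annotation covered 1343 cells of intact nerve, 1780 at day 7 and 4111 at day 21, with 8371421, 36169912 and 33683464 unique molecular identifiers (UMIs) in that order. The median per cell was 5667, 19316 and 7442 UMIs. For each library or class the annotated cells were pooled into 1 sum per gene, expressed as CPM, the usual unit that scales every pool to the same total of UMIs, and every level below is such a CPM. Intervals in parentheses are 95% intervals that cover counting error only, since cells are not replicates and with 1 library per group no difference has a replicate check or a p-value. Pairs of libraries shared 41 to 58 barcodes, of which 1 or 2 were annotated in both.

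The 3 layer classes of the annotation carried their own markers. Endoneurial markers (Osr2, Sox9, Wif1, Meox1) summed to 547 to 850 CPM in the endoneurial class (MES_ENDO) and to at most 269 CPM in the other 2 layers. Epineurial markers summed to 2008 to 4202 CPM in the epineurial class (MES_EPI) against at most 346 CPM. Perineurial markers summed to 5372 CPM in the intact perineurial class (MES_PERI), 747 CPM at day 7 and 2812 CPM at day 21, against at most 217 CPM in the other layers, so the day 7 class carried its markers at the lowest level of the 3. Perineurial cells made up 8.64% of annotated cells in intact nerve, 13.5% at day 7 and 50.3% at day 21, while endoneurial cells made up 49.4%, 14.3% and 11.8%. MES_DIFF and the dividing class MES_DIV reached 50 cells only in the bridge libraries, and MES_EPI-diff only at day 7.

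Of the 68 members, 53 reached a mean of 1 CPM over the 3 libraries and were compared, and 37 reached 5 CPM. The 15 below 1 CPM were Dcc, Unc5d, Slit1, Sema3a, Sema4d, Sema4f, Efna3, Plxnb3, Robo3, Robo4, Ephb1, Epha1, Epha6, Epha8 and Epha10. Slit1 and Epha8 had 0 counts in the annotated cells of every library, and a limit of 3 counts per library, used here for a count of 0, is 0.358 CPM in intact nerve, 0.0829 CPM at day 7 and 0.0891 CPM at day 21. The exact Poisson upper limits for 0 counts are 0.441, 0.102 and 0.110 CPM. Dcc, the attractive netrin receptor, had 3 counts in intact nerve, 0 at day 7 and 2 at day 21. Unc5b, a netrin receptor linked to repulsion and to vessel growth, lay at 3.23 CPM in intact nerve, 5.50 CPM at day 7 and 0.920 CPM at day 21. Neo1, a netrin receptor outside the symbol rule, lay at 25.1 CPM in intact nerve, 59.6 CPM at day 7 and 41.8 CPM at day 21. Its day 21 level was 1.43-fold below day 7 (1.33 to 1.53). All 3 compared netrin receptors within the rule, Unc5a, Unc5b and Unc5c, were more than 2-fold lower at day 21 than at day 7, where 5.84% of all features were. With cells thinned to 2000 UMIs, and with the 3 layer classes weighted alike and other classes left out, Unc5b alone of these 3 stayed past 2-fold. The set-aside Unc50 lay at 68.8, 81.8 and 69.1 CPM in intact nerve, day 7 and day 21, and the other 4 set-aside names had at most 3 counts in the annotated cells of a library. In barcodes without a class Plxna4os1 had 58 counts at day 7 and 28 at day 21.

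Against intact nerve, the day 7 bridge had lower levels of Ntn1, Ntn4, Nrp2, Plxnc1 and several semaphorins, and higher levels of Sema7a, Ephb2, Efna4 and Robo1. A call here means a CPM at least 2-fold apart after adding 0.5 counts to each sum. At day 7, 15 of the 53 compared members were 2-fold or more lower, where 13.8% of all 13442 features were, and 9 were higher, where 9.54% of all features were. The median log2 ratio of the 53 was −0.02, beside −0.06 over all features. Among 29 compared ligands 10 were lower and 3 higher, and among 24 receptors 5 were lower and 6 higher. With every barcode included, 10 members were lower and 10 higher, and with each cell thinned to 2000 UMIs 13 were lower and 12 higher. The share of all features at these alternative settings is not given here.

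The netrins Ntn1 and Ntn4 are secreted laminin-related proteins, and Ntn4 is also a basement membrane component. Ntn4 lay at 121 CPM in intact nerve, 18.4 CPM at day 7 and 63.4 CPM at day 21, and day 7 was 6.54-fold lower than intact (5.93 to 7.23). Ntn1 lay at 125, 30.7 and 90.8 CPM, and its day 7 level was 4.08-fold lower than intact (3.74 to 4.44). Both were lowest at day 7 and intermediate at day 21, with no overlap of the counting intervals. The third netrin, Ntn5, had 5, 15 and 135 counts and lay at 0.597, 0.415 and 4.01 CPM.

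Sema7a showed the widest ratio of the 53 compared members at day 7. It encodes a membrane-anchored semaphorin that signals through integrins and through Plxnc1, its plexin. Sema7a had 6 counts in intact nerve (0.717 CPM), 792 at day 7 (21.9 CPM) and 91 at day 21 (2.70 CPM), and day 7 was 30.6-fold above intact (14.0 to 83.5) and 8.11-fold above day 21 (6.52 to 10.2). Plxnc1 was lowest at day 7, at 20.3 CPM in intact nerve, 3.18 CPM at day 7 and 17.2 CPM at day 21. The day 7 level of Plxnc1 was 6.39-fold below intact (5.01 to 8.16), and day 21 differed from intact by 1.18-fold (0.99 to 1.41), an interval that includes 1.

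Positions follow GENCODE M21 on GRCm38. Sema7a is at chr9:57940112-57962865 on the plus strand, Plxnc1 at chr10:94790866-94944835 on the minus strand and Ntn4 at chr10:93640681-93747207 on the plus strand. Ntn1 is at chr11:68209364-68400823 and Efnb3 at chr11:69554092-69560205, both on the minus strand, and Nrp2 is at chr1:62703285-62818695 on the plus strand. Counts are per gene, so exons and untranslated regions are not told apart.

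**Figure D1:**
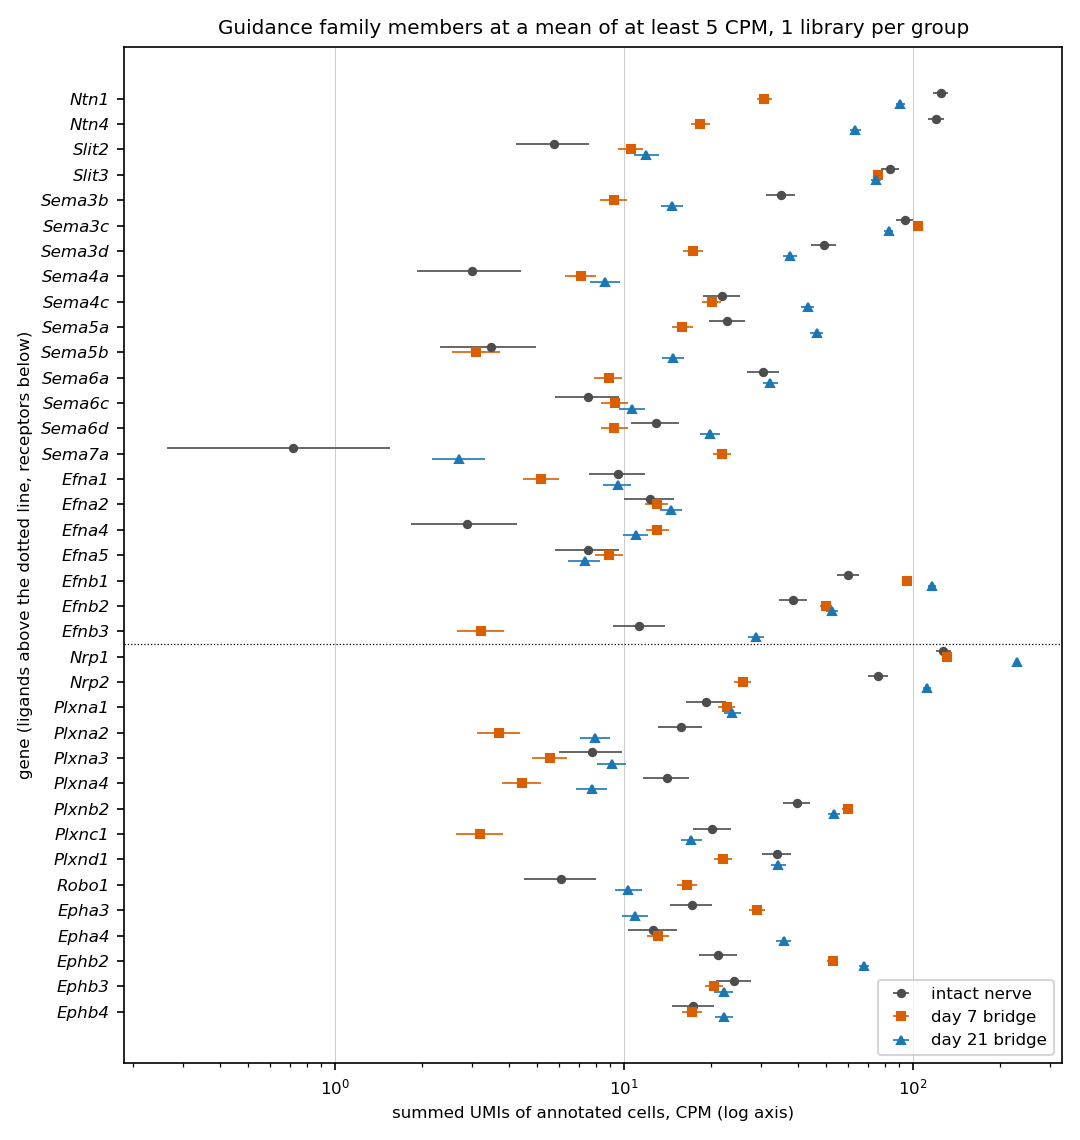
Level of the 37 members at a mean of at least 5 CPM, with CPM on a log axis, 1 point per library and bars for exact Poisson 95% intervals (counting error only). Day 7 squares lie left of the other 2 libraries for Ntn1 (30.7 CPM), Ntn4 (18.4 CPM), Nrp2 (25.8 CPM) and Plxnc1 (3.18 CPM), and right of them for Sema7a (21.9 CPM).

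The 3 members farthest from intact nerve at day 7 among those at a mean of 5 CPM or more are Sema7a, Ntn4 and Plxnc1, and the DNA just before their starts is shown for that reason. Windows of 250 bases upstream of the RefSeq start are given 5′ to 3′ on the gene's strand, in the RefSeq promoter table of GRCm38.p6, with capitals marking each match to GGGCGG, the Sp1 box, on either strand. The windows are chr9:57939862-57940111 on the plus strand for Sema7a, chr10:94944846-94945095 on the minus strand for Plxnc1 and chr10:93640799-93641048 on the plus strand for Ntn4. In GENCODE M21 the Sema7a and Plxnc1 windows overlap no transcript, and the Ntn4 window overlaps 1 transcript of Ntn4 itself and 0 of its exons, so it lies in an intron of that transcript.
Sema7a: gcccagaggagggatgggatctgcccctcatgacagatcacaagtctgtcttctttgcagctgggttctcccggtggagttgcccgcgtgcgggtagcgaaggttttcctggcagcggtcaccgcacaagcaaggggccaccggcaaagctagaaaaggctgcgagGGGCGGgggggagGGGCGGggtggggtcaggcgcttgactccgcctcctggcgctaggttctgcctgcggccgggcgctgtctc
Plxnc1: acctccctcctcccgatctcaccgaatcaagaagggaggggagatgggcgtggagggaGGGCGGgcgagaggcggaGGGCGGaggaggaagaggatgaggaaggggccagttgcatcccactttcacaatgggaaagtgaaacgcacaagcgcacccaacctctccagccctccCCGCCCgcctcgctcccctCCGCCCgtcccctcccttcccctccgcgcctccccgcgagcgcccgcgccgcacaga
Ntn4: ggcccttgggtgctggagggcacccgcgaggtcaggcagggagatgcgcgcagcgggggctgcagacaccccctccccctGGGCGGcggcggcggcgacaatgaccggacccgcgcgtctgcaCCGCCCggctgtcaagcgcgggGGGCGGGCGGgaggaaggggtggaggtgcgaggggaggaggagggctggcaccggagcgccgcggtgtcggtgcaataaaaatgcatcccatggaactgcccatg
GC content of these windows was 66.4% for Sema7a, 68.8% for Plxnc1 and 73.2% for Ntn4, with 2, 4 and 4 matches. The Sp1 box was present in 36 of 46 compared members with a promoter in the table (78.3%), beside 60.7% of 9854 compared features, and in 33.0% of all 27025 promoters. Of the other motifs searched on both strands in the same windows, TGANTCA (AP-1) was in 1 of those 46 members (2.17%) beside 4.04% of compared features, GGAATG (TEAD) in 5 (10.9%) beside 10.5%, and GTGGGAA (RBPJ) in 2 (4.35%) beside 5.43%. Overlapping matches were counted separately, as for the last 2 boxes of Ntn4, and a match is a description of the letters and not a site of binding. Promoters of 58 of the 68 members were in the table, and Ntn1 was not among them.

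The secreted class 3 semaphorins, most of which repel axons through neuropilin and plexin A complexes, included 4 of 6 compared members that were 2-fold or more lower at day 7, beside the 13.8% of all features, and none higher. Over every barcode Sema3d alone of these 4 stayed past 2-fold, and Sema3b, Sema3e and Sema3g did not. Sema3b lay at 35.0 CPM in intact nerve, 9.26 CPM at day 7 and 14.8 CPM at day 21. Over every barcode, classed or not, its day 21 log2 ratio to intact was 1.06 in place of −1.25, and unclassed barcodes with Schwann markers, described further on, held it at 128 CPM at day 7 and 265 CPM at day 21. Sema3d lay at 49.2, 17.4 and 37.7 CPM. Sema3e, a ligand of Plxnd1 that acts on vessels without a neuropilin, lay at 4.30, 1.35 and 1.04 CPM. Sema3c and Sema3f were exceptions to the lower levels. Sema3c lay at 93.9, 105 and 82.6 CPM, no more than 1.27-fold apart between any pair of libraries. Sema3f lay at 1.79, 2.79 and 1.96 CPM.

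Among membrane-bound semaphorins, the class 6 member Sema6a, a ligand of plexin A receptors, was lowest at day 7 as Ntn1 and Ntn4 were, with 30.5 CPM in intact nerve, 8.87 CPM at day 7 and 32.2 CPM at day 21. The class 5 members Sema5a and Sema5b, which carry thrombospondin repeats, were highest at day 21. Sema5a lay at 22.8, 16.0 and 46.6 CPM, and Sema5b at 3.46, 3.10 and 14.9 CPM, 4.29-fold above intact at day 21 (2.95 to 6.48). Sema4a lay at 2.99, 7.11 and 8.64 CPM, higher in both bridge libraries.

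Among the ephrins, the GPI-anchored Efna4 was higher in both bridge libraries, at 2.87 CPM in intact nerve, 13.1 CPM at day 7 and 11.0 CPM at day 21. The transmembrane Efnb1 lay at 59.7, 95.7 and 117 CPM over all annotated cells, 1.96-fold above intact at day 21 (1.78 to 2.15). By layer, day 21 Efnb1 was above intact in endoneurial cells (106 against 63.7 CPM) and epineurial cells (44.6 against 27.9 CPM). In perineurial cells, whose share of cells was larger at day 21, it was below intact (176 against 219 CPM). Efnb3 lay at 11.3 CPM in intact nerve, 3.21 CPM at day 7 and 28.6 CPM at day 21, so it was lowest at day 7 and highest at day 21. Efnb2, an arterial marker in endothelium, lay between 38.6 and 52.6 CPM.

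Nrp1 and Nrp2, shared co-receptors of class 3 semaphorins and of VEGF, had different orders of libraries. Nrp1 lay at 128 CPM in intact nerve, 132 CPM at day 7 and 229 CPM at day 21, and day 7 differed from intact by 1.03-fold (0.96 to 1.10). The layers went in different directions. Day 7 Nrp1 was above intact in endoneurial cells (103 against 53.0 CPM) and perineurial cells (126 against 88.2 CPM) and below it in epineurial cells (112 against 203 CPM). Nrp2 lay at 76.0, 25.8 and 113 CPM, 2.94-fold lower at day 7 (2.66 to 3.26). Of the plexins, Plxna2 (15.8, 3.70 and 7.99 CPM) and Plxna4 (14.1, 4.45 and 7.75 CPM) were lower at day 7, while Plxna1 (19.4, 22.8 and 23.8 CPM) was within 1.23-fold in every pair.

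Robo1, a Slit receptor, lay at 6.09, 16.6 and 10.4 CPM and was 2.72-fold above intact at day 7 (2.04 to 3.69). Its ligands Slit2 and Slit3 lay at 5.73, 10.6 and 12.0 CPM and at 83.6, 76.2 and 74.6 CPM. Ephb2, an EphB receptor for ephrin-B ligands, lay at 21.3, 52.9 and 68.0 CPM and was above intact 2.49-fold at day 7 (2.13 to 2.92) and 3.20-fold at day 21 (2.74 to 3.74). Epha3 lay at 17.2, 29.0 and 10.9 CPM and Epha4 at 12.7, 13.2 and 35.8 CPM, so over all annotated cells these 2 EphA receptors peaked in different libraries. Within epineurial cells Epha3 had no day 7 peak, at 35.7, 32.0 and 22.2 CPM. At day 7 the epineurial class held 433 of its counts, MES_DIFF 366 and MES_EPI-diff 144. With the 3 layer classes weighted alike and the other classes left out, Epha3 was no longer 2-fold lower at day 21 than at day 7.

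At day 21, 13 of the 53 members were 2-fold or more higher than in intact nerve, where 7.59% of all features were, and 6 were lower, where 7.27% were. The median log2 ratio of the 53 was 0.30, beside 0.06 over all features. With each cell weighted alike 14 were higher and 10 lower, and with the 3 layer classes weighted alike 8 were higher and 10 lower. Between the bridge libraries, day 21 was 2-fold or more higher than day 7 for 16 members, where 8.43% of all features were, and lower for 5, where 5.84% were. Of the 29 compared ligands, 11 were higher and 1, Sema7a, was lower at day 21. Intact nerve is the shared reference of the first 2 comparisons and day 7 enters the first and the third, so the 3 sets of ratios are not independent. The median over all features between the bridge libraries was 0.12 on the log2 scale, and after centring on it 12 members were higher and 6 lower. Shares of all features under the alternative settings of this paragraph are not given here.

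Partners and signalling genes that act with these families were followed on a list of 65 symbols outside them, of which 54 were compared. At day 7, 10 were 2-fold higher than intact (18.5%, beside 9.54% of all features) and 3 lower (5.56%, beside 13.8%). At day 21, 7 were higher than intact (13.0%, beside 7.59%) and 2 lower (3.70%, beside 7.27%). Between the bridge libraries 4 were higher at day 21 (7.41%, beside 8.43%) and 1 lower (1.85%, beside 5.84%), so the share of higher genes there was near that of all features. Mical2, an actin-oxidising enzyme of the family that acts below plexins, lay at 11.0, 62.6 and 36.7 CPM. Ntng1, a GPI-anchored netrin relative, lay at 72.7, 11.0 and 56.0 CPM, the same order of libraries as Ntn1 and Ntn4. Kdr, the VEGF receptor that pairs with neuropilins, had 7, 326 and 332 counts and lay at 0.836, 9.01 and 9.86 CPM. The summed endothelial markers lay at 38.2, 72.1 and 147 CPM in the same annotated cells, with 2 or 3 of the 6 under 1 CPM, and their part in the Kdr values was not tested.

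The families split by layer. A member was called for a layer where its CPM was at least 2-fold above both other layers, a description, since the classes were built from these cells' genes. In intact nerve 15 of 53 members were perineurial by this rule, where 13.4% of all features were, 8 were epineurial, where 5.57% were, and 7 were endoneurial, where 4.28% were. Some of these calls rest on few UMIs, such as perineurial Robo2 on 1, Epha2 and Ntn5 on 4 each and Efna4 on 6, and endoneurial Sema7a on 5. The intact perineurial pool was the smallest of the layer pools, at 725278 UMIs. At day 7 the counts were 9 perineurial beside 4.12% of features, 10 epineurial beside 6.64%, and 4 endoneurial beside 2.70%. At day 21 they were 8 perineurial beside 6.32%, 5 epineurial beside 5.91%, and 5 endoneurial beside 3.82%. Of the 37 members at 5 CPM or more, 21 had the same leading layer in all 3 libraries (56.8%), beside 42.8% of 10109 features at that level. For the same leading layer in intact nerve and at day 21, the shares were 62.2% of the members and 63.2% of the features.

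Among the 3 layers, epineurial cells led in Slit2, Slit3, Sema3c and Epha3 in every library. Slit2 lay at 11.7, 13.2 and 32.8 CPM in the epineurial class of intact nerve, day 7 and day 21, and at no more than 2.53 CPM in the other 2 layers. Slit3 lay at 143, 112 and 183 CPM there, and at 8.27 to 37.6 CPM in the other layers. Sema3c lay at 175, 232 and 152 CPM, and the receptor Epha3 at 35.7, 32.0 and 22.2 CPM, against 0.288 to 3.68 CPM for Epha3 elsewhere. Outside the layers, MES_DIFF at day 7 held Slit2 at 14.1 CPM, Slit3 at 85.5 CPM and Epha3 at 45.7 CPM, and MES_EPI-diff held Epha3 at 73.5 CPM.

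Perineurial cells led in Efnb3, Sema3d and Ntn1. Efnb3 lay at 127 CPM in intact perineurial cells, 12.8 CPM at day 7 and 62.9 CPM at day 21, and at 0 to 4.82 CPM in the other 2 layers. Sema3d lay at 292, 58.6 and 76.9 CPM, and Ntn1 at 379, 73.8 and 152 CPM. Efnb1 was also high in this class, at 219, 231 and 176 CPM, as was Ephb2, at 53.8, 70.9 and 91.7 CPM in that order. The intact perineurial class also carried summed vascular smooth muscle markers of 549 CPM, with 1 of 3 at 0, and endothelial markers of 357 CPM, with 4 of 6 at 0, and their part in these levels was not tested. Epineurial cells held Ephb2 at 29.9, 52.3 and 60.2 CPM in intact nerve, day 7 and day 21. Outside the layers, MES_DIFF at day 7 and day 21 held Ephb2 at 69.0 and 77.5 CPM, Efnb1 at 105 and 141 CPM and Ntn1 at 12.1 and 71.8 CPM.

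Endoneurial cells were above both other layers in Sema7a at day 7 and day 21 and in Plxnc1 in intact nerve. Intact Sema7a rests on 5 endoneurial counts against 1 epineurial and 0 perineurial counts, whose intervals overlap, so no lead is shown there. Perineurial cells were close for Plxnc1 at day 7, at 4.53 CPM, and at day 21, at 23.4 CPM, with overlapping intervals. Sema7a lay at 1.44, 31.6 and 4.14 CPM in the endoneurial class and its receptor Plxnc1 at 46.1, 5.89 and 27.1 CPM, so in this class Sema7a was highest in the library where Plxnc1 was lowest. Plxna2 lay at 32.0, 5.35 and 22.8 CPM in endoneurial cells, and at day 7 perineurial cells held it at 5.60 CPM, so the endoneurial lead was seen in intact nerve and at day 21. Nrp2 was shared by endoneurial cells (152, 40.9 and 145 CPM) and perineurial cells (108, 68.5 and 181 CPM) and lay at 6.33 to 13.8 CPM in epineurial cells, where Nrp1 was at 203, 112 and 232 CPM.

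**Figure D2:**
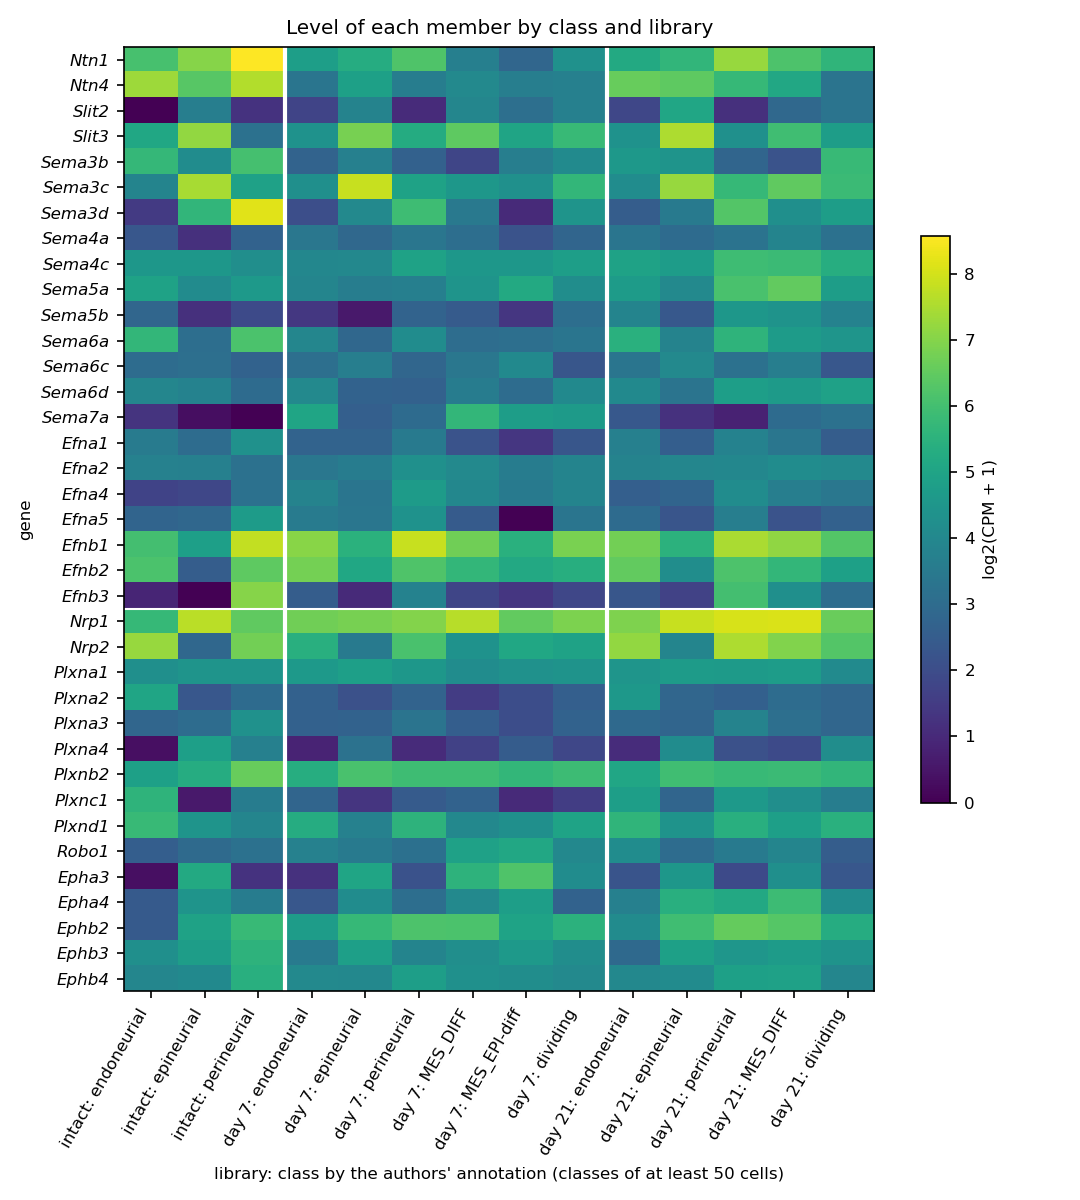
Level of the 37 members as log2(CPM + 1) in each class of at least 50 cells, with columns grouped by library and colour for the level. The map is to be read along a row. Efnb3 is bright in perineurial columns (127, 12.8 and 62.9 CPM) and Slit2 in epineurial ones (11.7, 13.2 and 32.8 CPM).

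Within layers, both netrins were lower at day 7 than in intact nerve in all 3 classes. Ntn4 lay at 157 CPM in intact and 9.10 CPM in day 7 endoneurial cells, a 17.3-fold difference (12.2 to 25.2), at 80.8 and 28.1 CPM in epineurial cells and at 190 and 11.5 CPM in perineurial cells. Ntn1 lay at 66.6 and 26.8 CPM, at 129 and 38.8 CPM and at 379 and 73.8 CPM in the same order of classes. At day 21, Ntn4 in epineurial cells lay at 85.6 CPM, within 1.06-fold of intact (0.93 to 1.21), while in perineurial cells it was at 52.0 CPM, 3.66-fold below intact (3.02 to 4.40).

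Counted over members with at least 20 CPM in the higher library of the class, 3 of 18 were 2-fold higher in day 7 endoneurial cells than in intact ones (8.36% of all such features) and 8 lower (9.19%). In epineurial cells 1 of 17 was higher (5.91%) and 4 lower (7.55%), and in perineurial cells 3 of 23 were higher (10.7%) and 8 lower (17.3%). For day 21 against intact, 1 of 16 was higher (3.47%) and 1 lower (4.60%) in endoneurial cells, and 2 of 18 were higher (3.48%) and 2 lower (3.29%) in epineurial cells. In day 21 perineurial cells 7 of 25 were higher (5.73%) and 8 lower (8.77%). The day 7 perineurial class is the one whose perineurial markers were lowest, and injury markers (Tnc, Postn and 4 others) summed to 1488 CPM in it against 509 CPM in intact perineurial cells.

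Sema7a at day 7 was found beyond the endoneurial class. It lay at 50.1 CPM in MES_DIFF, 31.6 CPM in endoneurial cells, 26.5 CPM in MES_EPI-diff and 24.4 CPM in dividing cells, and at 5.09 and 6.93 CPM in epineurial and perineurial cells. By day 21 MES_DIFF was at 6.90 CPM and endoneurial cells at 4.14 CPM, 7.26-fold and 7.63-fold lower. Efnb2 in epineurial cells lay at 4.81 CPM in intact nerve, 33.6 CPM at day 7 and 17.6 CPM at day 21, a 6.98-fold difference at day 7 (4.42 to 11.7). In endoneurial cells Efnb2 lay at 69.2, 109 and 90.3 CPM.

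The perineurial class at day 21 was higher in Sema5b, Nrp1 and Sema6d and lower in Sema3b and Sema3d than its intact counterpart. Sema5b lay at 22.4 CPM against 2.76 CPM, where the intact value rests on 2 counts and the ratio is 8.13-fold (2.23 to 67.5). Nrp1 lay at 267 CPM against 88.2 CPM, 3.03-fold higher (2.37 to 3.94). Sema6d lay at 27.2 against 6.89 CPM, where the intact value rests on 5 counts. Sema3b lay at 5.91 against 64.8 CPM, 11.0-fold lower (7.48 to 15.9), and Sema3d at 76.9 against 292 CPM, 3.80-fold lower (3.26 to 4.41).

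**Figure D3:**
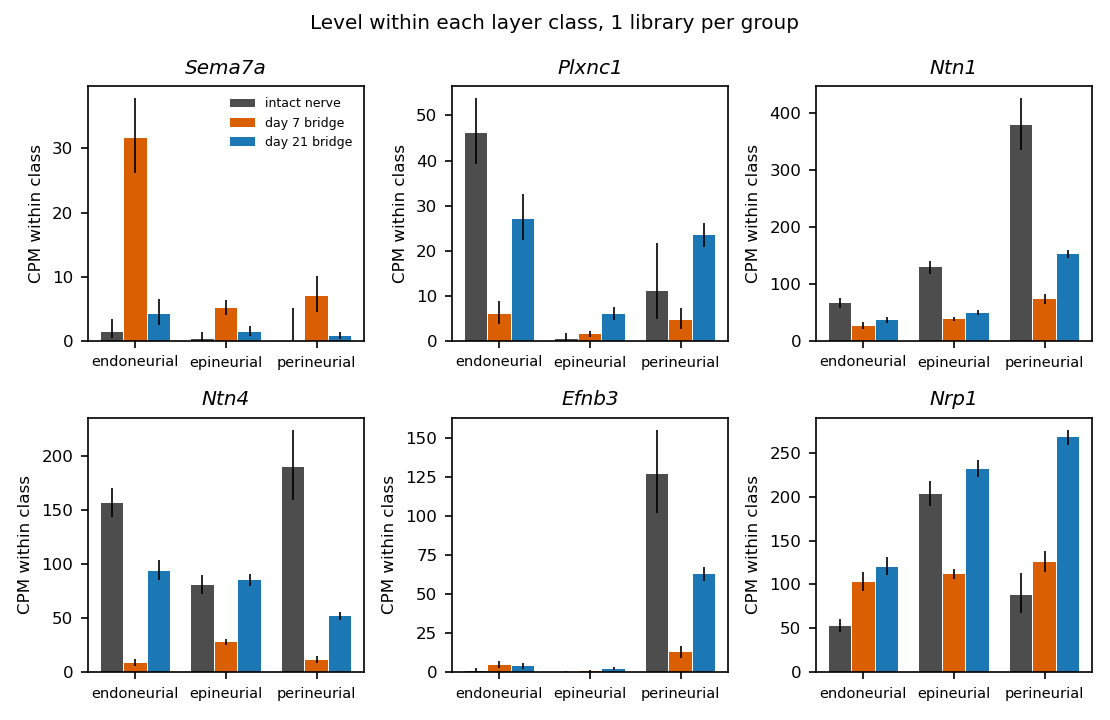
CPM within the 3 layer classes for 6 members, with bars for intact nerve, day 7 and day 21 and lines for exact Poisson 95% intervals (counting error only). Ntn4 is lowest at day 7 in all 3 layer classes (9.10, 28.1 and 11.5 CPM), and Nrp1 in perineurial cells is highest at day 21 (267 CPM).

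Some differences between libraries changed when the 3 layer classes were weighted alike, a setting that leaves out MES_DIFF, MES_EPI-diff and MES_DIV. In that order, those classes held 1.36%, 0.150% and 1.21% of annotated UMIs in intact nerve. They held 22.1%, 5.42% and 14.3% at day 7 and 11.6%, 0.777% and 4.40% at day 21. Efnb3 was 2.52-fold higher at day 21 than in intact nerve over all annotated cells (2.04 to 3.15), yet within perineurial cells, which held 96.8% of its UMIs in intact nerve and 87.2% at day 21, it was 2.02-fold lower (1.61 to 2.50). With the 3 layer classes weighted alike, its log2 ratio was −0.89 in place of 1.33. Ntn1 and Sema3d were likewise farther below intact with the classes weighted alike, at −1.27 in place of −0.46 and −1.89 in place of −0.39. Sema5b (1.97 in place of 2.08), Epha4 (1.29 in place of 1.49) and Slit2 (1.47 in place of 1.05) stayed past 2-fold, while Ephb2 (0.93 in place of 1.67), Sema5a, Ntn5 and Plxnb1 did not. For day 7 over intact, Robo1 (0.63 in place of 1.43) and Ephb2 (0.76 in place of 1.31) were likewise under 2-fold with the classes weighted alike.

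**Figure D4:**
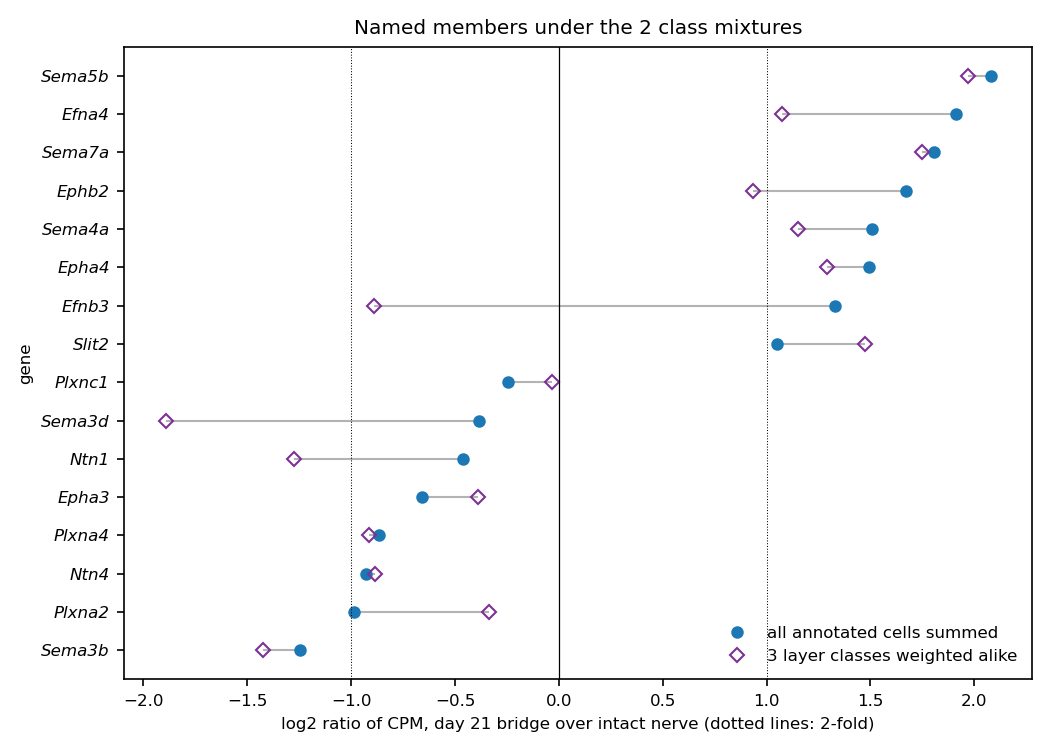
Log2 ratio of CPM, day 21 over intact nerve, for the 16 named members, with filled circles for all annotated cells summed and open diamonds for the 3 layer classes weighted alike. Efnb3 crosses 0, from 1.33 to −0.89, and Sema5b stays at the right, at 2.08 and 1.97.

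In the dividing class, Epha5, Plxnb3 and Sema3b had higher levels in cells that carried Schwann cell markers. Schwann markers (Sox10, S100b, Erbb3, Mbp) summed to 99.7 CPM in the day 7 dividing class and 376 CPM at day 21, and none of the 4 was at 0. Of 119 dividing cells at day 21, 41 carried at least 3 of the 4 markers, a split chosen after the values were seen. Those 41 cells held 76 counts of Epha5 (148 CPM), and the other 78 cells held 7 (7.24 CPM). Plxnb3 had 24 counts with the markers and 10 without (46.6 and 10.3 CPM), and Sema3b had 51 and 29 (99.1 and 30.0 CPM). Nrp2 at day 21 lay at 75.8 CPM with the markers and 77.5 CPM without, with overlapping intervals, while at day 7 it lay at 66.0 and 26.0 CPM. At day 7, 25 of 206 dividing cells carried the markers, with 29 counts of Epha5 against 4 in the others, and the part of Schwann cells in these values was not tested.

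**Figure D5:**
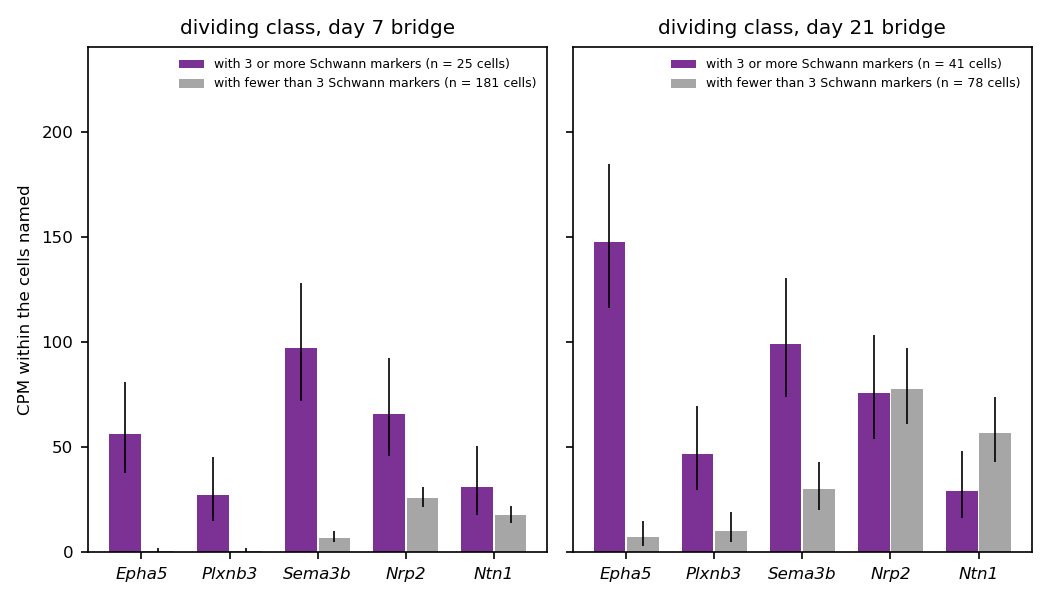
CPM within dividing cells that carry at least 3 Schwann markers (25 cells at day 7, 41 at day 21) and within the others (181 and 78), for 5 members, with exact Poisson 95% intervals as lines. Epha5 is at 56.3 and 148 CPM with the markers and at 0.859 and 7.24 CPM without them.

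Epha5, Sema3b and Plxnb3 were also measured in the barcodes that the authors left without a class. Of 3511 such barcodes at day 21, 1027 carried at least 3 Schwann markers and a larger share of that list than of 4 other cell type lists, a choice made after the values were seen, and there Epha5 lay at 142 CPM, Sema3b at 265 CPM and Plxnb3 at 68.5 CPM. Robo4, an endothelial Robo receptor, lay at 118 CPM in 94 unclassed day 7 barcodes chosen the same way by endothelial markers and at 147 CPM in 189 such barcodes at day 21, while it had at most 10 counts in the annotated cells of any library. Plxnd1 in those endothelial-marked barcodes lay at 275 and 335 CPM, and Sema7a at 129 and 136 CPM. Sema4d, below 1 CPM in the annotated cells, lay at 46.4 and 56.1 CPM in 252 and 185 barcodes chosen by myeloid markers. In intact nerve, 141 barcodes chosen by vascular smooth muscle markers held Sema3f at 71.7 CPM, against 1.79 CPM in annotated cells, and Ntn4 at 142 CPM.

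Annotated cells that carried at least 3 markers of endothelial, Schwann, myeloid, vascular smooth muscle or pericyte lists numbered 4 in intact nerve (0.298%), 120 at day 7 (6.74%) and 80 at day 21 (1.95%). The median UMIs per annotated cell had the same order of libraries, at 5667, 19316 and 7442, and the part of depth in these shares was not tested. Without these marker-carrying cells the log2 ratio of Sema7a at day 7 over intact was 4.81 in place of 4.82, that of Plxnc1 −2.57 in place of −2.67 and that of Ntn4 −2.72 in place of −2.71. Over every barcode, classed or not, the Sema7a ratio was 2.24, where intact nerve had 55 Sema7a counts in barcodes without a class (17.5 CPM). With each annotated cell thinned to 2000 UMIs it was 3.75, so the direction was the same at each setting. Intact annotated cells held few Sema7a counts even before thinning, and the part of depth in the size of the difference was not tested.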

How the data were processed

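Single-cell libraries of intact nerve, day 7 bridge and day 21 bridge, 1 each, were read from the authors' deposited count matrices, which hold whole UMI counts for each barcode. The matrices were made with Cell Ranger 6.1.2, per the file headers. The submitters' processing notes also name Cell Ranger 3.0.2, the toolkit Seurat 4.0.1, and as genome build both GRCm38 and mm10. Cell classes came from the authors' deposited annotation, of which 7234 of 7235 cells were found in the matrices. No doublet caller was run here, and whether doublets were removed is not given in the sources used here. UMIs were summed per library or class and scaled to CPM with Python 3.11.15, numpy 2.4.6, scipy 1.17.1 and pandas 2.3.3. Ratios are log2 with 0.5 counts added, and intervals are exact Poisson or conditional binomial (Clopper-Pearson) 95% intervals for counting error. Features needed a mean of 1 CPM over the 3 libraries. Class levels needed 50 cells and within-class ratios 100 cells in both libraries. With 1 library per group no test was made.

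The members, gene lists, markers and comparisons were chosen with earlier results of these data known. Members with full values were the 8 per direction and comparison with the largest ratio at a mean of 5 CPM or more, 6 per layer class and 4 per class and direction within classes, and other members could be named. The split by Schwann markers, the marker-carrying barcodes and the alternative without annotated cells carrying 3 or more markers of other cell types were chosen after seeing the data. Other alternatives changed the filter on low levels, the weighting of cells, the barcodes included, the centring, the depth (cells thinned to 2000 UMIs), the class mixture, the dividing class and the counts added. The ratio calculation was tested on simulated data. The Schwann list holds the 4 markers named in the text, and further Schwann markers are not reported here. Lymphocyte markers were at or near 0 in annotated cells.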

Additional observations from a re-analysis of the deposited data

Results flagged for a closer look

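Nrp1, Plxnd1, Sema3c and Slit3 differed in opposite directions between classes under the same comparison, on the log2 scale of CPM ratios. These differences were not tested, since each group is 1 library. For day 21 over day 7, Nrp1 was at 0.22 in endoneurial cells, 1.05 in epineurial cells, 1.09 in perineurial cells, 0.42 in MES_DIFF and −0.27 in dividing cells. For day 7 over intact nerve, Plxnd1, the receptor of Sema3e, was at −0.46 in endoneurial cells, −0.72 in epineurial cells and 1.67 in perineurial cells. For day 21 over day 7, Sema3c was at −0.61 in epineurial cells, 0.82 in perineurial cells and 2.01 in MES_DIFF. Slit3 in that comparison was at 0.71 in epineurial cells, −1.01 in perineurial cells, −0.49 in MES_DIFF and −1.02 in dividing cells. For day 7 over intact nerve, Slit3 was at −0.78 in endoneurial cells, −0.35 in epineurial cells and 2.07 in perineurial cells. The intact perineurial values rest on few counts, 6 for Slit3 and 10 for Plxnd1. Endothelial markers summed to 357 CPM in intact perineurial cells, with 4 of 6 at 0, and to 243 CPM in day 7 ones, with 0 of 6 at 0. Perineurial cells with at least 3 endothelial markers, and a larger share of that list than of 4 others, were 0 of 116 in intact nerve. At day 7 they were 11 of 241. The part of endothelial cells in the Plxnd1 values was not tested.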

How the results depend on the processing

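Of 32 ratios past 2-fold among the members given with full values, all 32 kept their direction and stayed past 2-fold with each cell weighted alike, with 2 counts added and without cells carrying other cell types' markers. After recentring and after thinning 32 kept direction and 31 stayed past 2-fold, over every barcode 31 and 27, and with 1 class mixture 31 and 26. The 1 class mixture weights the 3 layer classes alike and leaves out the other classes. Efnb3 at day 21 over intact was −0.89 with 1 class mixture, and Sema3b was 1.06 over every barcode. At a mean of 10 CPM, where 26 members are compared, day 7 against intact gave 2 higher and 8 lower. Day 21 against intact gave 4 higher and 1 lower, and day 21 against day 7 gave 11 higher and 1 lower. Without the low-level filter, day 7 against intact gave 14 higher and 15 lower. Day 21 against day 7 then gave 17 higher and 9 lower. For day 21 against intact, 1 class mixture gave 8 higher and 10 lower. Each cell weighted alike gave 14 higher and 10 lower, and every barcode 14 higher and 2 lower. Counts of layer calls at 10 CPM were 2 endoneurial, 4 epineurial and 6 perineurial in intact nerve, 1 endoneurial and 3 perineurial at day 7, and 0, 3 and 4 in that order at day 21. At a fold of 3 they were 4 endoneurial in intact nerve, 1 endoneurial, 5 epineurial and 3 perineurial at day 7, and 5 perineurial at day 21. These counts are given without the share of all features at each setting, so they describe the members alone. Fewer members are compared at 10 CPM by construction, and the cause of the other shifts was not tested. With 1 library per group no replicate could be left out. No paired analysis was possible because each group has 1 library. Depth limits intact perineurial values most, which rest on 116 cells.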
